A study of Mus musculus with 8 samples.

Results

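The genes described here encode enzymes that make second messengers after a G protein-coupled receptor is activated. They are 7 adenylyl cyclases (*Adcy1*, *Adcy2*, *Adcy3*, *Adcy5*, *Adcy6*, *Adcy8* and *Adcy9*) and 3 beta-type phospholipases C (*Plcb1*, *Plcb3* and *Plcb4*). The members were taken by gene symbol from a list, and all 10 of 10 were found among 38031 genes. Each gene is represented by the annotated transcript with the lowest Ensembl number. The study asked what happens to gene expression in mature primary motor cortex (M1) when the transcription factor *Fezf2* is reduced. Male Swiss Webster mice aged P21 to P25 received a lentivirus in M1, and tissue was taken at P49 to P53. The virus carried mCherry and an shRNA under the neuronal SynI promoter. It held either *Fezf2 shRNA* (4 libraries) or, in the same vector, *non-silencing shRNA* (4 libraries, the controls). M1 was dissected by its mCherry signal with all cortical layers and the meninges, so that each library holds total RNA of transduced and other cells together. The control libraries had 54684016 to 58003814 counts over 1 transcript per gene, and the *Fezf2 shRNA* libraries 55932510 to 56969290. The labels number 4 samples of each treatment without naming the animals, and p-values measure the spread between these samples, which may in part be technical.

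Adenylyl cyclases turn ATP into cyclic AMP. Receptors coupled to Gs stimulate them, receptors coupled to Gi restrain several of them, and the isoforms differ in how they respond to calcium and to G protein beta-gamma subunits. Cyclic AMP acts mainly through protein kinase A and the Epac proteins. Phospholipases C of the beta type are activated by Gq and in part by beta-gamma subunits, and split a membrane lipid into inositol trisphosphate, which releases calcium from internal stores, and diacylglycerol, which activates protein kinase C. In cortex both branches shape excitability and synaptic plasticity.

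*Fezf2*, the targeted gene (GRCm38, chromosome 14, 12342102 to 12345959, minus strand), had 688, 767, 735 and 702 normalized counts in the 4 *non-silencing shRNA* libraries and 621, 583, 568 and 592 in the 4 *Fezf2 shRNA* libraries. The 4 *Fezf2 shRNA* libraries were the 4 lowest of all 8 (p = 0.0286, two-sided exact permutation test, a value that no 4 against 4 comparison can undercut). Over all genes, the quasi-likelihood test of edgeR was used with p-values adjusted by the Benjamini-Hochberg method, and a gene was called when its adjusted p was 0.05 or less and its log2 fold change was 0.2 or more in size. By this test *Fezf2* was not called, with a log2 fold change of -0.29 (SE 0.0781, 95% confidence interval -0.46 to -0.12) and an adjusted p of 0.0824 in edgeR. DESeq2 called it, with an adjusted p of 0.0256 without its prior. With the offset for gene length described further on, its log2 fold change was -0.18 (edgeR adjusted p = 0.452). The 19-nt sense sequence of the shRNA matched *Fezf2* transcripts over 19 nt. In transcripts of the 10 members the longest match to the sense strand was 10 nt, in *Adcy1*, and the longest match to the antisense strand was also 10 nt, in *Adcy2* and *Plcb3*.

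*Adcy2* and *Plcb1* increased with *Fezf2 shRNA*, and no member decreased past the threshold. A gene was tested when it had more than 8 CPM (counts in a library relative to its total) in at least 4 libraries, and 9 of the 10 members passed this filter. *Plcb3* did not. Past the threshold were 2 of the 9 members tested, both increased, against 195 increased genes (1.96%) and 13 decreased genes (0.131%) among the 9959 genes tested, or 2.09% in either direction. Both are the longest of the 10 members, and neither was called once counts were adjusted for gene length, with log2 fold changes of 0.079 for *Adcy2* and 0.036 for *Plcb1*. DESeq2 without its prior called the same 2 members and 0 with a lower level, against 658 increased genes (6.61%) and 94 decreased genes (0.944%) of all tested. In edgeR 2 of the 9, again these 2, had an unadjusted p under 0.05, against 1947 of all genes tested (19.6%), a like share. In bulk tissue, fewer cells of a type and less RNA per cell cannot be told apart.

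Because *Adcy2* and *Plcb1* rose together, the 250 bases before their annotated start sites are shown (RefSeq, build GRCm38.p6), with both windows of *Plcb4*, for which 3 intervals but not the whole lowest-numbered transcript passed the test. Neither *Plcb4* window adjoins the lowest-numbered transcript, which starts further downstream. The *Plcb1* window, which ends at 134786163, does not adjoin its lowest-numbered transcript either, which starts at 134786530. The same holds for the windows of *Adcy1*, *Adcy5* and *Adcy9* and the upstream window of *Adcy3*. RefSeq windows were matched for 8 of the 10 members. Capitals mark a GC box (GGGCGG on either strand), and overlapping matches were joined.
Adcy2 (chr13:68999542-68999791, minus strand): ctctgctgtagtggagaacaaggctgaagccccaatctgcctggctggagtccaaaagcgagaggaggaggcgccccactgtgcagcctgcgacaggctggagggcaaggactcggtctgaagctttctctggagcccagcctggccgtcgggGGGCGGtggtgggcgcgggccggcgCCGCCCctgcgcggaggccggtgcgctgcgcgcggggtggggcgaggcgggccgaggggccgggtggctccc
Plcb1 (chr2:134785914-134786163, plus strand): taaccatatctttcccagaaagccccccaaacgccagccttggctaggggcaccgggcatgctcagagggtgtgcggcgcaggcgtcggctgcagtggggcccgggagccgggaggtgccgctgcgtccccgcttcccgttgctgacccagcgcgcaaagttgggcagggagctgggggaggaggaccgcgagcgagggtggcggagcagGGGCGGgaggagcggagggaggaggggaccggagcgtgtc
Plcb4 (chr2:135659297-135659546, plus strand): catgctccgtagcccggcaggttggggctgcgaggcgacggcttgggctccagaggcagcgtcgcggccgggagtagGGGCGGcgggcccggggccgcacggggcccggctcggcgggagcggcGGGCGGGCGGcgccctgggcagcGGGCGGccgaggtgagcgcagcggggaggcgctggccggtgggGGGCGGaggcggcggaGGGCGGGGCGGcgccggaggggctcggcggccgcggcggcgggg
Plcb4 (chr2:135764588-135764837, plus strand): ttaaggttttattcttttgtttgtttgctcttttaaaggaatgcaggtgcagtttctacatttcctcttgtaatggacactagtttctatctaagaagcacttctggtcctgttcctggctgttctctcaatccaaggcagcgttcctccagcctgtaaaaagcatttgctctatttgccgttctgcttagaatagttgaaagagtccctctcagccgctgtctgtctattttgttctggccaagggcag
The window of *Adcy2* held 2 GC boxes, that of *Plcb1* 1, the upstream window of *Plcb4* 7 and its downstream window 0. Members that were tested and not called held more than *Adcy2* and *Plcb1* in 4 cases, *Plcb4* with its upstream window, *Adcy1* with 3, *Adcy5* with 4 and *Adcy9* with 4, and *Plcb3*, which was not tested, held 5, while the windows of *Adcy3* held 1 and 0. A GC box was found in 32.7% of 32851 windows of this length. None of the 10 windows of members held the cAMP response element TGACGTCA or the TATA box TATAAA, which 1.55% and 12.4% of all windows held. The GC content was 73.2% for *Adcy2*, 71.2% for *Plcb1*, and 85.2% and 42.8% for the windows of *Plcb4*.

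The members differed widely in level. The counts cover a whole genomic interval, introns included, so levels are compared as normalized counts per kb of this interval in the controls (mean ± SD, n = 4). *Adcy1* had the highest level of the 2 families, 387 ± 20.9 per kb. *Adcy6* followed on this scale with 67.1 ± 7.24, and its control libraries overlapped neither those of *Adcy1* nor those of *Adcy9*. This order depends on the scale, because 36.6% of the *Adcy6* interval is exonic, against 1.21% for *Plcb1* and 1.11% for *Adcy2*. Without division by length, the control mean was 1185 normalized counts for *Adcy6*, 27908 for *Plcb1* and 10839 for *Adcy2*. *Adcy9* (50.3 ± 5.90) and *Plcb1* (45.5 ± 3.43) overlapped. The next 4 genes in the order, *Adcy2* (28.6 ± 2.22), *Adcy5* (27.8 ± 3.45), *Plcb3* (24.4 ± 2.50) and *Adcy3* (21.8 ± 1.45), each overlapped their neighbours among these 4. *Plcb4* (17.1 ± 0.933) stood below them, and *Adcy8* (10.8 ± 2.47) was the lowest member. The other genes of both families were lower still on this scale. *Adcy7*, like *Adcy4* a cyclase that beta-gamma subunits stimulate, had 8.44, overlapping *Adcy8*. *Plcb2*, known from blood cells and represented by a transcript that covers part of the gene, had 5.04, the soluble cyclase *Adcy10* 4.82 and *Adcy4* 3.06. None of these 4 passed the 8 CPM filter.

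*Adcy1* and *Adcy8* are the cyclases that calcium and calmodulin stimulate. *Adcy1* (chromosome 11, 7063489 to 7178506, plus strand), the most abundant of the 10, had 46162, 46861, 43574 and 41639 normalized counts in the 4 *non-silencing shRNA* libraries and 39366, 38718, 46106 and 41224 in the 4 *Fezf2 shRNA* libraries. The treatments overlapped, with *Fezf2 shRNA* replicate 3 among the controls and the other 3 below them. The log2 fold change was -0.11 (SE 0.0782, edgeR adjusted p = 0.456), 95% confidence interval -0.28 to 0.065, so that *Adcy1* was not called. *Adcy8* (chromosome 15, 64697084 to 64922296, minus strand) had 2413, 2001, 3233 and 2118 normalized counts in the 4 *non-silencing shRNA* libraries and 2759, 2729.5, 3048 and 2468 in the 4 *Fezf2 shRNA* libraries. Control replicate 3 was the highest of all 8 libraries, and the other 3 controls lay below every *Fezf2 shRNA* library. The log2 fold change was 0.17 (SE 0.136, edgeR adjusted p = 0.494), 95% confidence interval -0.13 to 0.47, and without control replicate 3 it was 0.35 (edgeR adjusted p = 0.102). The counting is not stated to use strand, and *Gm21798*, named because of its position, overlaps *Adcy8* on the opposite strand. Its interval (chromosome 15, 64817694 to 64937996) had 35.5% as many reads as that of *Adcy8* and was also highest in control replicate 3, at 1135 normalized counts. The libraries were made with a stranded kit, but in the deposited counts reads of these 2 genes cannot be told apart where they overlap.

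*Adcy2* belongs to the cyclases that beta-gamma subunits stimulate when Gs is active. *Adcy2* (chromosome 13, 68620043 to 68999541, minus strand, 25 exons) had 10876, 12003, 10390.2 and 10088 normalized counts in the 4 *non-silencing shRNA* libraries and 13929.5, 14312, 13064 and 13563 in the 4 *Fezf2 shRNA* libraries. Every *Fezf2 shRNA* library lay above every control, and control replicate 2 was the highest control. This is a log2 fold change of 0.34 (SE 0.0697, edgeR adjusted p = 0.0357), 95% confidence interval 0.19 to 0.49. Groups did not overlap in this direction for 2 of the 9 members tested, *Adcy2* and *Plcb1*, against 738 of all genes tested (7.41%). In the other direction this held for 0 members and 439 genes (4.41%). With 1 library left out, *Adcy2* was called without control replicate 2 alone (edgeR adjusted p = 0.0187). The adjusted p was 0.112, 0.0676 and 0.0964 in edgeR without control replicate 1, 3 or 4, and 0.0960, 0.0519, 0.0738 and 0.0780 without *Fezf2 shRNA* replicate 1, 2, 3 or 4, while the log2 fold change stayed between 0.31 and 0.39. With a filter of more than 1 CPM it was 0.34 and not called (edgeR adjusted p = 0.0692).

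*Adcy5* and *Adcy6* are the cyclases that calcium and Gi inhibit. *Adcy5* (chromosome 16, 35154877 to 35305738, plus strand), the main cyclase of the striatum, had 3658 to 4903 normalized counts in the controls and 4023 to 4239 with *Fezf2 shRNA*. Its *Fezf2 shRNA* libraries lay within the range of the controls, and the log2 fold change was -0.013 (SE 0.0816, edgeR adjusted p = 0.943), 95% confidence interval -0.19 to 0.17. *Adcy6* (chromosome 15, 98589973 to 98607633, minus strand) had 1079 to 1371 normalized counts in the controls and 1029.7 to 1097 with *Fezf2 shRNA*. Control replicate 4 was its highest library, and the log2 fold change was -0.14 (SE 0.0815, edgeR adjusted p = 0.339), 95% confidence interval -0.32 to 0.036, or -0.063 without that library. *Adcy3* (chromosome 12, 4134153 to 4213524, plus strand), known from olfactory neurons and from the primary cilia of central neurons, had 1629 to 1890.1 normalized counts in the controls and 1479 to 1817 with *Fezf2 shRNA*. Its log2 fold change was -0.028 (SE 0.0796, edgeR adjusted p = 0.869), 95% confidence interval -0.20 to 0.15. The last bases of *Adcy3* overlap *Cenpo*, named because of its position, on the opposite strand. *Adcy9* (chromosome 16, 4287545 to 4419587, minus strand), a broadly expressed cyclase that responds little to forskolin, had 5961 to 7767 normalized counts in the controls and 6832 to 8021 with *Fezf2 shRNA*. Control replicate 2 lay within its *Fezf2 shRNA* libraries and the other 3 controls below all of them. The log2 fold change was 0.16 (SE 0.0851, edgeR adjusted p = 0.301), 95% confidence interval -0.024 to 0.35, or 0.25 without control replicate 2 (edgeR adjusted p = 0.0746). For these 4 genes no difference was detectable beyond the spread between replicates.

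*Plcb1* is a main effector of Gq in the cerebral cortex. *Plcb1* (chromosome 2, 134786530 to 135399675, plus strand, 32 exons) had 27634, 30426, 28251 and 25319.9 normalized counts in the 4 *non-silencing shRNA* libraries and 33842, 34943, 37054 and 36577 in the 4 *Fezf2 shRNA* libraries. The treatments did not overlap, and the log2 fold change was 0.35 (SE 0.0740, edgeR adjusted p = 0.0390), 95% confidence interval 0.19 to 0.51. With 1 library left out, *Plcb1* was called without control replicate 2 (edgeR adjusted p = 0.0242) and without *Fezf2 shRNA* replicate 2 (edgeR adjusted p = 0.0468). The adjusted p in edgeR was 0.124, 0.0665 and 0.0989 without control replicate 1, 3 or 4, and 0.0834, 0.0971 and 0.0978 without *Fezf2 shRNA* replicate 1, 3 or 4. Over these the log2 fold change lay between 0.31 and 0.40. *Plcb1* was not called with a filter of more than 1 CPM (0.35, edgeR adjusted p = 0.0692) or when represented by its widest interval, that of Plcb1-205 (0.20, edgeR adjusted p = 0.315). Plcb1-205 had fewer reads than intervals inside it, so that its value may not stand for the whole gene, and the nearly equally wide Plcb1-202 was called among all intervals (0.31, edgeR adjusted p = 0.0354). *Plcb4* (chromosome 2, 135805548 to 136013068, plus strand), best known from cerebellum and thalamus, had 3374, 3821, 3479 and 3497 normalized counts in the 4 *non-silencing shRNA* libraries and 3821, 3860.2, 3417 and 4521 in the 4 *Fezf2 shRNA* libraries. *Fezf2 shRNA* replicate 4 was the highest library, replicates 1 and 3 lay within the range of the controls, and the log2 fold change was 0.14 (SE 0.0835, edgeR adjusted p = 0.360), 95% confidence interval -0.044 to 0.32, or 0.063 without replicate 4. Represented by its widest interval, *Plcb4* had 0.26 (edgeR adjusted p = 0.0917). *Plcb3* (chromosome 19, 6953713 to 6969814, minus strand), a further Gq and beta-gamma effector, had 356, 415, 361 and 438 normalized counts in the 4 *non-silencing shRNA* libraries and 452, 363, 401 and 363 in the 4 *Fezf2 shRNA* libraries. These values overlapped throughout. It had 6.24 to 8.23 CPM, just at the filter, and with a filter of more than 1 CPM its log2 fold change was 0.011 (SE 0.116, edgeR adjusted p = 0.976).

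**Figure D1:**
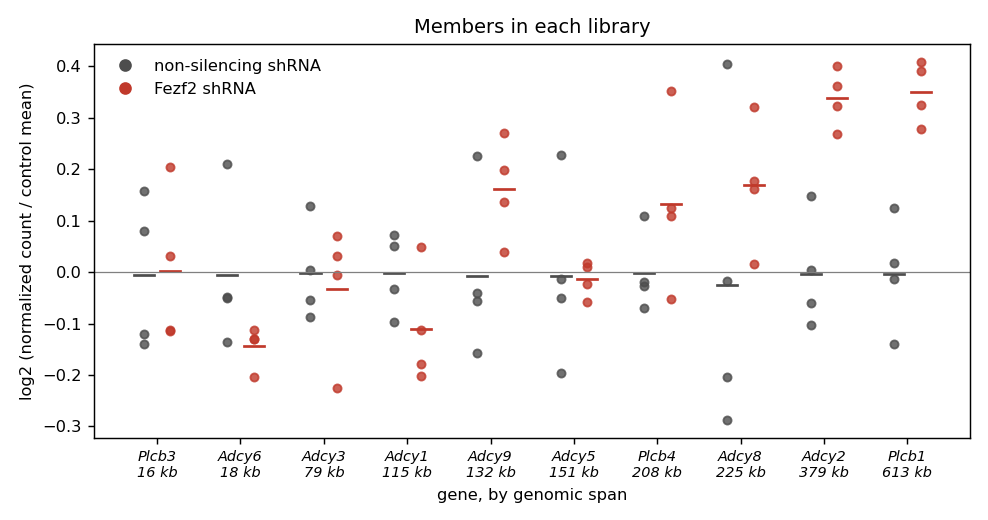
Normalized counts of the 10 members in each library, as log2 of the ratio to the control mean of the gene, with genes ordered by genomic span in kb. Points are libraries (4 per treatment), bars are means of the log2 ratios, and the treatments are separate only for *Adcy2* and *Plcb1*, the 2 longest members.

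Median log2 fold changes were higher in longer genes, from a median of -0.12 for genes under 10 kb to 0.29 for genes over 300 kb. The 2 members over 300 kb, *Adcy2* (379 kb) and *Plcb1* (613 kb), had log2 fold changes of 0.34 and 0.35. The 407 tested genes of more than 300 kb had quartiles of 0.19 and 0.39, so both lay between the quartiles. Of the members between 100 and 300 kb, *Adcy8* (225 kb), *Plcb4* (208 kb) and *Adcy9* (132 kb) lay near the median of that class (0.15, quartiles 0.048 and 0.25, 1297 genes). *Adcy5* (151 kb) and *Adcy1* (115 kb) lay below its lower quartile. *Adcy6*, with 17.7 kb, lay near the lower quartile of genes of 10 to 30 kb (-0.14).

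**Figure D2:**
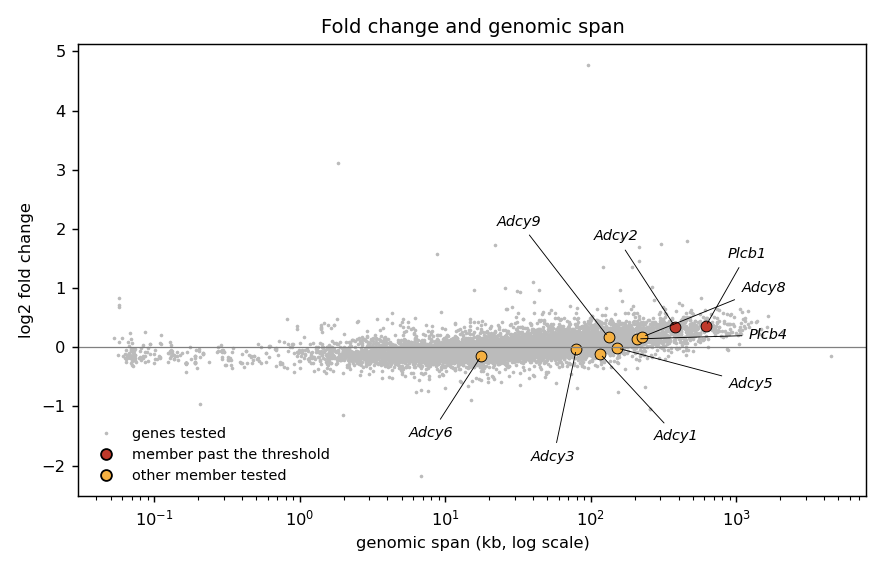
Log2 fold change of each gene tested (grey) against its genomic span in kb on a log scale, with the 9 members tested marked. *Adcy2* and *Plcb1*, in red, lie at the long end, where the median of genes over 300 kb was 0.29.

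An offset was therefore fitted that removes, in each library, the trend of counts with genomic span, whatever its source. With it, the log2 fold change of *Adcy2* was 0.079 (adjusted p = 0.737) and that of *Plcb1* 0.036 (adjusted p = 0.894, both from edgeR), and neither passed the threshold. Among all genes 2 passed it, both decreased (0.0201%), and among the members 0, with 1 of the 9, *Adcy1*, at an unadjusted p under 0.05, against 1074 of all genes (10.8%), again a like share. *Adcy1* had -0.22 with the offset (adjusted p = 0.283 from edgeR). *Adcy8* and *Plcb4* changed sign, to -0.026 and -0.047, and *Adcy5* had -0.16, *Adcy3* -0.10, *Adcy6* -0.072 and *Adcy9* 0.033. The median of the 9 members was 0.14 without the offset and -0.047 with it, beside -0.027 and -0.011 for all genes tested.

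**Figure D3:**
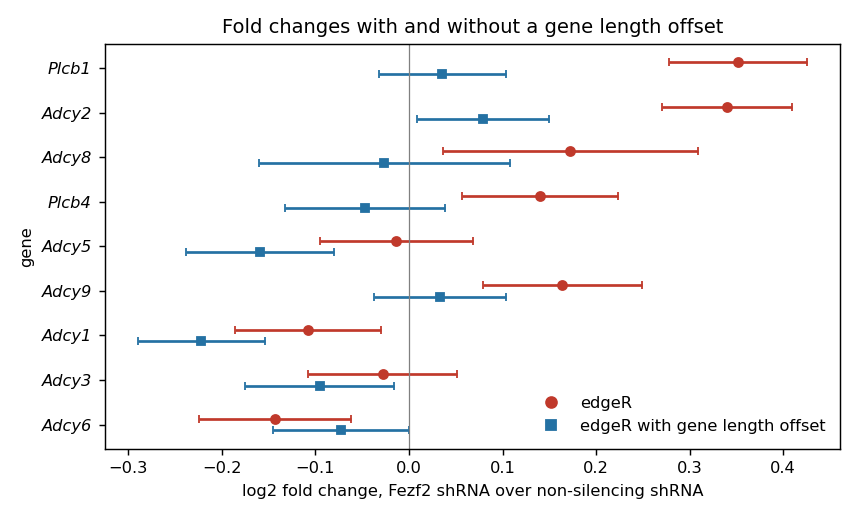
Log2 fold changes of the 9 members tested, without (circles) and with (squares) the offset for gene length. Bars are standard errors of the fit, and *Adcy2* moved from 0.34 to 0.079 and *Plcb1* from 0.35 to 0.036.

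Shorter annotated transcripts were used to compare stretches within a gene. Every deposited interval that passed the filter was tested, 32204 in all, of which 1594 increased (4.95%) and 86 decreased (0.267%). Intervals of 1 gene share reads and are not independent, and p-values were adjusted over all intervals. The offset for gene length was not fitted to intervals, so the part of length in these values was not tested. In *Plcb1*, the interval of the retained-intron transcript Plcb1-204 covers the 5′ 203 kb, of which 0.878% is exonic. It had 7843, 8674, 8583 and 8304 normalized counts in the 4 *non-silencing shRNA* libraries and 9957, 12521, 13694 and 11883 in the 4 *Fezf2 shRNA* libraries. All 4 *Fezf2 shRNA* libraries lay above the controls, with replicate 1 the lowest of them. Its log2 fold change was 0.52 (SE 0.0906, edgeR adjusted p = 0.0161), against 0.35 (SE 0.0726, edgeR adjusted p = 0.0224) for the whole interval of the lowest-numbered transcript. Plcb1-203, a stretch of 41.5 kb with 7.24% exonic bases, had 0.13 (SE 0.0797, edgeR adjusted p = 0.365). It starts 435 kb from the first annotated start and does not reach the 3′ end of the gene. Inside the 5′ interval lies *Gm14036*, named because of its position, a stretch of 0.480 kb on the same strand with a mean of 966 reads and a log2 fold change of -0.21 (edgeR adjusted p = 0.254). *4930545L23Rik*, also named because of its position, lies inside *Plcb1* on the opposite strand with 2.50% as many reads as *Plcb1*. Its log2 fold change was 0.57 (edgeR adjusted p = 0.177), and *Fezf2 shRNA* replicate 4 was its highest library, at 1409.7 normalized counts. The log2 ratio of the 5′ interval to the remainder of the gene was -1.59 ± 0.145 in controls and -1.31 ± 0.225 with *Fezf2 shRNA* (SD, n = 4 each; two-sided exact permutation test, p = 0.0857, 0.129 adjusted over 3 such ratios).

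*Plcb4* as represented by its lowest-numbered transcript did not pass the threshold, but 3 of its intervals did, all starting upstream of it and largely intronic. Plcb4-207 (169 kb, 1.33% exonic) had 952, 1078, 1049 and 1065 normalized counts in the 4 *non-silencing shRNA* libraries and 1338, 1510.5, 1432 and 1506 in the 4 *Fezf2 shRNA* libraries. The treatments did not overlap, and the log2 fold change was 0.48 (SE 0.0731, edgeR adjusted p = 0.0114). Plcb4-208 and Plcb4-210, which cover the first stretch of the gene from the upstream start, did not pass, with 0.35 (SE 0.153, edgeR adjusted p = 0.208) and 0.34 (SE 0.151, edgeR adjusted p = 0.216), and their treatments overlapped because control replicate 3 was high, at 652 and 658 normalized counts. Plcb4-204, within Plcb4-207, had 0.51 (SE 0.0798, edgeR adjusted p = 0.0126), and Plcb4-211, which starts upstream, 0.49 (SE 0.0865, edgeR adjusted p = 0.0161). At the 3′ end, Plcb4-213 (26.7 kb, 10.6% exonic) had 1534, 1629.9, 1420.2 and 1604 normalized counts in the 4 *non-silencing shRNA* libraries and 1499, 1445, 1408 and 1730.5 in the 4 *Fezf2 shRNA* libraries. These libraries overlapped, with *Fezf2 shRNA* replicate 4 the highest and replicate 3 the lowest, and the log2 fold change was -0.025 (SE 0.0809, edgeR adjusted p = 0.882). The log2 ratio of Plcb4-207 to Plcb4-213 within a library does not depend on the normalization. It was -0.69, -0.60, -0.44 and -0.59 in the controls and -0.16, 0.064, 0.024 and -0.20 with *Fezf2 shRNA*. The difference was 0.51, and the treatments did not overlap (two-sided exact permutation test, p = 0.0286, 0.0857 adjusted over the 3 ratios). Adjusted in this way it does not pass 0.05. Both intervals of this ratio were chosen after the counts were seen, and the adjustment does not cover that choice.

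In *Adcy1* the ratio that was formed did not differ beyond the spread between libraries, but it is not a ratio of the 5′ to the 3′ part. Adcy1-202 covers a stretch near the 3′ end, 33.3% exonic, and had a log2 fold change of -0.13 (SE 0.0799, edgeR adjusted p = 0.377). This stretch ends at 7172879 and the gene at 7178506, so the remainder lies on both sides of it. The log2 ratio of the remainder of the gene to this interval was 0.99 ± 0.103 in controls and 1.01 ± 0.0459 with *Fezf2 shRNA* (SD, n = 4 each; two-sided exact permutation test, p = 0.686, and 0.686 adjusted over the 3 ratios). *Adcy2*, *Adcy5*, *Adcy6*, *Adcy8* and *Plcb3* have 1 interval each in the table, so their parts could not be separated, and the intervals of *Adcy3* and *Adcy9* that passed the filter cover nearly the whole gene. The 3 ratios and the intervals they use were chosen after the counts were seen.

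**Figure D4:**
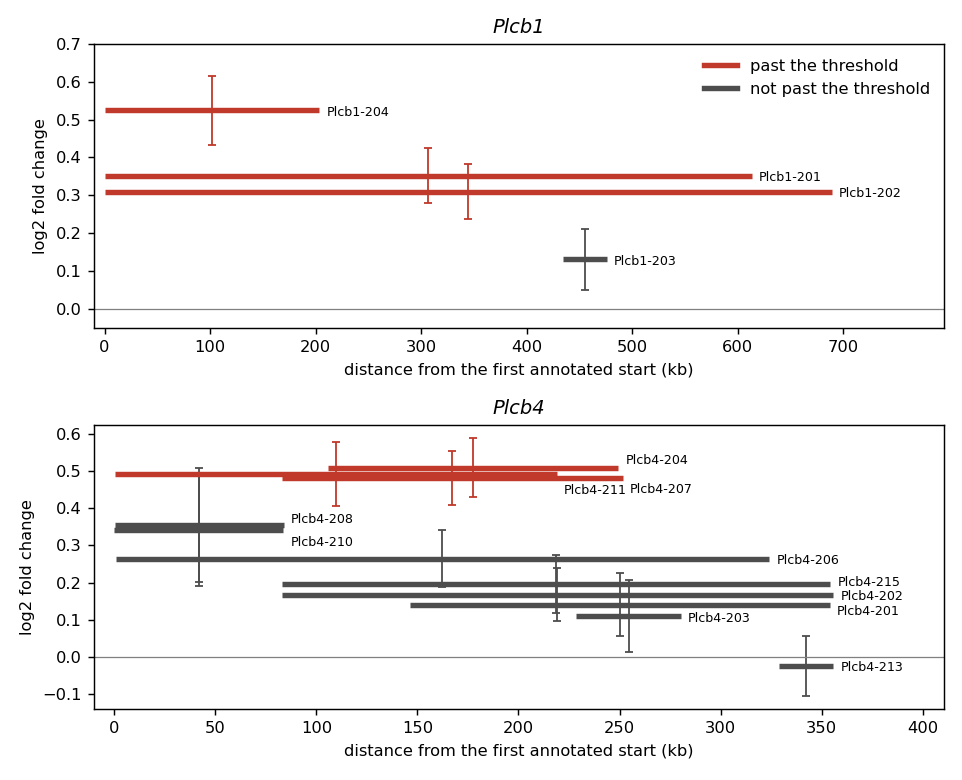
Log2 fold changes (vertical axis, with standard errors) of the tested transcript intervals of *Plcb1* and *Plcb4*, each drawn along its distance in kb from the first annotated start of the gene. Intervals past the threshold are in red. In *Plcb1* they are the 5′ interval Plcb1-204 and the long intervals Plcb1-201 and Plcb1-202, in *Plcb4* 3 intervals that end before its 3′ part, and the 3′ interval Plcb4-213 lies at -0.025. Plcb1-205 is left out because it had fewer reads than shorter intervals inside it.

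The proteins that act on these enzymes or after them were described from lists of receptors, G proteins and effectors. Of 138 listed genes, 105 were tested and 3 increased past the threshold, *Dgki*, *Grm3* and *Grm7*, while 0 decreased in edgeR or DESeq2. With a filter of more than 1 CPM *Grm7* alone was called. *Dgki* then had 0.45 (edgeR adjusted p = 0.0621) and *Grm3* 0.29 (edgeR adjusted p = 0.0570). When 1 library was left out, *Dgki* was called only without control replicate 2 or 3. *Grm3* was called only without control replicate 2 or *Fezf2 shRNA* replicate 2. *Grm7* was called only without control replicate 2 or 3 or *Fezf2 shRNA* replicate 2 or 4. Over all genes, 1.96% increased in edgeR and 6.61% in DESeq2, and 19.6% had an unadjusted p under 0.05, against which the counts for each list stand. Among Gi-coupled receptors, 2 of 14 tested increased, both glutamate receptors (3 in DESeq2, 3 at an unadjusted p under 0.05). *Grm3* had 11556, 11792, 10964 and 11227 normalized counts in the 4 *non-silencing shRNA* libraries and 13522, 13765, 13923 and 14527 in the 4 *Fezf2 shRNA* libraries, without overlap, a log2 fold change of 0.29 (SE 0.0576, edgeR adjusted p = 0.0329). *Grm7*, a presynaptic receptor gene of 920.5 kb, had 15642, 17769, 17403 and 14506 normalized counts in the 4 *non-silencing shRNA* libraries and 25322, 23232, 25213 and 23070 in the 4 *Fezf2 shRNA* libraries, also without overlap, and 0.57 (SE 0.0806, edgeR adjusted p = 0.0184). The median of this list was 0.013, and its most abundant genes, *Gabbr2* (0.17) and *Gabbr1* (-0.041), did not pass. Of 11 Gq-coupled receptors tested, 0 passed in edgeR, 1 passed in DESeq2 and 4 had an unadjusted p under 0.05. Their median was 0.14. *Grm5*, the most abundant of them, had 0.35 (SE 0.0900, edgeR adjusted p = 0.0759), and *Chrm1* 0.00080. Of 14 Gs-coupled receptors only 5 were tested, and 0 passed in edgeR and 1 in DESeq2, with 1 at an unadjusted p under 0.05. *Adcyap1r1* had 0.012 and *Vipr1* -0.0020.

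No G protein subunit passed in edgeR or in DESeq2. None of 11 alpha subunits tested passed (median 0.0055, 1 at an unadjusted p under 0.05), with *Gnas*, which encodes Gs alpha, at -0.086 and *Gnao1*, which encodes Go alpha, at 0.079. None of 11 beta and gamma subunits tested passed (median -0.053, 1 at an unadjusted p under 0.05), with *Gnb1* at 0.13 and *Gnb2* at -0.068.

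Downstream of cyclic AMP, 0 of 15 effectors tested passed in edgeR or DESeq2 (median -0.0089, 2 at an unadjusted p under 0.05). *Rapgef4*, which encodes an Epac protein, had -0.0089 and *Prkar1b*, a regulatory subunit of protein kinase A, -0.070. With the gene length offset *Rapgef4* had -0.20 and *Prkar1b* -0.18. Of 11 A-kinase anchors, which hold protein kinase A at its sites of action, 0 passed in edgeR or DESeq2 and 0 had an unadjusted p under 0.05 (median -0.014), with *Akap6* at 0.075 and *Akap11* at -0.029. Downstream of phospholipase C, 1 of 21 genes tested increased, *Dgki*, a gene for a diacylglycerol kinase, an enzyme that ends the diacylglycerol signal. DESeq2 called 5 of them, all higher, and 5 had an unadjusted p under 0.05. *Dgki* had 8443, 9149.9, 10726 and 7673 normalized counts in the 4 *non-silencing shRNA* libraries and 12678, 12334, 12186 and 12015 in the 4 *Fezf2 shRNA* libraries, without overlap, and 0.45 (SE 0.0929, edgeR adjusted p = 0.0360). The median of this list was 0.064, with *Prkcb*, a protein kinase C, at 0.078 and *Itpr1*, an inositol trisphosphate receptor, at 0.094. *Prkcb* ran from 0.011 to 0.21 and *Itpr1* from 0.061 to 0.19 when 1 library was left out. Of 6 other phospholipase C genes tested, 0 passed in edgeR and 1 in DESeq2 (2 at an unadjusted p under 0.05, median 0.038), with *Plcl2* at 0.14 and *Plcl1* at 0.31. DESeq2 without its prior placed 11 listed genes past the threshold, and 0 passed with the gene length offset, where *Grm7* had 0.21, *Dgki* 0.17 and *Grm3* 0.085. *Grm5* then had 0.042 and *Plcl1* 0.061. List medians with this offset were -0.051 for alpha subunits and 0.027 for beta and gamma subunits. They were -0.0058 for cyclic AMP effectors, -0.066 for A-kinase anchors, -0.022 downstream of phospholipase C and -0.026 for other phospholipase C genes. For receptors they were 0.057 (Gs-coupled), 0.0099 (Gi-coupled) and 0.049 (Gq-coupled).

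**Figure D5:**
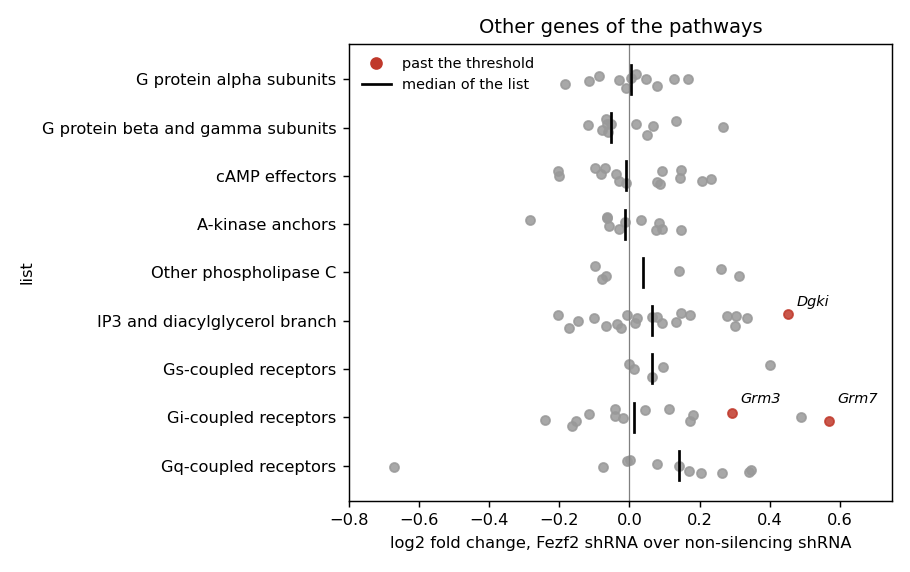
Log2 fold changes of the listed pathway genes that were tested, 1 row per list, with the median of each list as a black bar. *Dgki*, *Grm3* and *Grm7*, in red, are past the threshold, and the medians lie between -0.053 and 0.14.

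Markers were used to check the tissue and its makeup. Markers of cortical excitatory neurons were abundant (*Slc17a7*, 30890.4 normalized counts in the controls on average). Of the striatal list, the receptor genes *Drd2* (25.6) and *Adora2a* (43.0) were low. Other genes of the striatal list were higher, with 4 of 8 past the filter and *Ppp1r1b* the most abundant (1601), and the list summed to 4279.6, 4588, 4252 and 3789 normalized counts in the controls and 3671, 3225, 4011 and 4461 with *Fezf2 shRNA*. No marker list held a gene at 0 in all libraries. By edgeR 0 marker genes were called, although several had an unadjusted p under 0.05, namely 2 of 5 tested in the list for all neurons, 2 of 5 for excitatory neurons, 2 of 6 for inhibitory neurons, 4 of 6 for oligodendrocytes and 1 of 2 for thalamic neurons, beside 19.6% of all genes. Markers that DESeq2 called without its prior included *Rbfox3* and *Rora*, which were higher with *Fezf2 shRNA*, and *Mog* and *Cnp*, which were lower. The oligodendrocyte markers were lower with *Fezf2 shRNA* in all 6 of 6 genes tested, and the median of their log2 fold changes was -0.53. Their summed level was 61184, 84012, 73134 and 111110 normalized counts in the controls and 48445, 45672, 74903 and 74892 with *Fezf2 shRNA*. Control replicate 4 was the highest, *Fezf2 shRNA* replicates 1 and 2 were the lowest, and *Mbp* was the most abundant gene. The thalamic list, in which *Rora* was the most abundant, summed to 15583, 13200.5, 18509 and 12886 normalized counts in the controls and 20853, 18081, 23241 and 21018 with *Fezf2 shRNA*, so that 3 of the 4 *Fezf2 shRNA* libraries lay above every control. The list has 2 tested genes with opposite signs, *Rora* with 0.50 (SE 0.119, edgeR adjusted p = 0.0592) and *Slc17a6*, which encodes a vesicular glutamate transporter, with -0.46 (SE 0.281, edgeR adjusted p = 0.374). Medians of the lists for all neurons (0.11), excitatory neurons (-0.033), inhibitory neurons (-0.10), oligodendrocyte precursors (-0.080), astrocytes (-0.075), microglia (0.0025) and striatal projection neurons (-0.11) lay nearer to 0, and 1 endothelial marker was tested (0.093). With the offset for gene length, the median was -0.037 for all neurons, 0.065 for excitatory neurons, -0.070 for inhibitory neurons and -0.46 for oligodendrocytes. It was -0.073 for oligodendrocyte precursors, -0.13 for astrocytes, 0.046 for microglia and -0.092 for striatal projection neurons. The thalamic median was 0.020 without the offset and -0.16 with it. The part of these marker differences in the values of *Adcy2*, *Plcb1* and the other members was not tested.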

How the data were processed

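RNA of 8 samples was sequenced as paired-end libraries. The authors trimmed reads with fastq-mcf, aligned them to mm10 with TopHat2 (2.1.1 per the submitters' processing notes) and deposited raw counts per Ensembl transcript, made with BEDTools multiCov (2.26.0). How reads that align to several places were treated is not given in the sources used here. A further table holds the authors' own DESeq2 comparison per gene and was not used. Of 94647 transcripts, 91320 were found in GENCODE M21 (GRCm38), and the other 3327 took 1.82% of counts. Of 1193 pairs of transcripts of 1 gene with the same ends, different exon numbers and at least 100 reads in every library for at least 1 of the pair, 1168 had identical counts in all libraries, as counting over whole intervals with introns gives. In 65 of 67 nested pairs of member intervals the outer one never had fewer reads. The other 2 pairs involve Plcb1-205, which was left out of the account of gene parts.

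Genes were tested with edgeR 4.0.16 in R 4.3.3 (TMM, quasi-likelihood test, Benjamini-Hochberg adjustment over all genes tested, no covariate). For display, counts were scaled to the mean effective library size. The common biological coefficient of variation was 11.7%, above the counting error of each member. The members, the lists and the named genes (the members, the other genes of both families, *Fezf2*, and in each list the genes past the threshold and the 2 most abundant) were chosen with earlier results of these data known. Overlapping genes and single markers are named outside this rule, after their values were seen. The DESeq2 result of 1 marker gene is not reported here. Alternatives were DESeq2 1.42.0, other normalizations, filters and thresholds, the widest interval, a gene length offset (loess, span 0.3), the replicate block and each library left out. A further 8 edgeR settings were run after seeing the data. No pair of samples had identical counts. The steps were tested on simulated data. Python 3.11.15 with pandas 2.3.3, numpy 2.4.6 and matplotlib 3.10.9 was also used.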

Additional observations from a re-analysis of the deposited data

Results flagged for a closer look

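Over 36 named genes and 72 groups of 4 libraries, 2 groups held a library far from the other 3 relative to the range of the group, where chance gives about 1 in 20 groups. *Itpr1* had 48714 normalized counts in control replicate 2 against 37811 to 38859.7 in the other controls. *Gabbr2* had 22690 in *Fezf2 shRNA* replicate 4 against 23561 to 23728 in the other *Fezf2 shRNA* libraries, a gap that is small beside its level. No group of a member stood out in this way.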

How the results depend on the processing

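The number of genes past the threshold was 208. It was 84 with a filter of more than 1 CPM and 103 with none, 752 and 734 with DESeq2 without and with its prior, 2 (both decreased) with the gene length offset, 90 with the replicate block and 2 (1 in each direction) with block and offset. Leaving out 1 library gave 0 to 368. The counts were 0, 368, 130 and 4 without control replicate 1, 2, 3 or 4 in edgeR and 13, 269, 9 and 17 without *Fezf2 shRNA* replicate 1, 2, 3 or 4. Where the count was 0, 1568 genes had an unadjusted p under 0.05. With library totals it was 144. After the result had been seen, 8 further edgeR settings were run (robust estimation, library sizes over filtered genes, both, TMM before the filter, another dispersion trend, trended, legacy or common dispersion). They gave 206 to 277 genes, the highest with robust estimation, and kept the calls on *Adcy2* and *Plcb1* in all 8. Not all of these fits differ, so they are not 8 separate checks. Library sizes over filtered genes and the legacy method each gave 208, as the default did. Robust estimation gave 277 with or without those library sizes. None of the 8 settings replaced the default fit.

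The 2 members past the threshold became 0 with either other filter, with the offset, with the replicate block, and with block and offset, 1 (*Adcy2*) with the widest interval, and 0 to 2 with 1 library left out. In *Adcy2* and *Plcb1* these losses had log2 fold changes of 0.34 and 0.35 (edgeR adjusted p = 0.0692 and 0.0692) at more than 1 CPM, 0.35 and 0.36 (edgeR adjusted p = 0.0760 and 0.0702) with no filter, 0.34 and 0.35 (edgeR adjusted p = 0.0550 and 0.0772) with the block, 0.079 and 0.036 (edgeR adjusted p = 0.737 and 0.894) with the offset and 0.077 and 0.033 (edgeR adjusted p = 0.565 and 0.851) with both. The log2 fold changes thus fell with the offset and not with the filters or the block. For *Plcb1* the widest interval is that of Plcb1-205, which had fewer reads than intervals inside it, while the nearly equally wide Plcb1-202 was called among all intervals (0.31). DESeq2, both other normalizations and the threshold without a fold limit kept both. The 3 listed genes became 1 with either other filter and with the block (*Grm7* each time), 11 with DESeq2 with or without its prior, 0 with the offset, with or without the block, and 0 to 8 with 1 library left out. With library totals they were 2 (*Dgki* and *Grm7*). The 1680 intervals past the threshold became 1148 at more than 1 CPM, 1526 with the block and 78 to 2474 with 1 library left out. The cause of these changes was not tested. The replicate numbers are not known to pair samples. Correlations of same-numbered samples ran from -0.133 to 0.30, and 2 of 4 controls correlated best with their own number.

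Log2 fold changes that changed sign were not called. With the offset alone, and then with block and offset, they were -0.026 and -0.0067 for *Adcy8*, -0.047 and -0.054 for *Plcb4*, -0.21 and -0.21 for *Akap6*, 0.0059 and 0.0064 for *Akap11*, -0.074 and -0.072 for *Gnao1*, 0.040 and 0.040 for *Gnb2*, -0.072 and -0.065 for *Gabbr2*, -0.0065 and -0.0058 for *Adcyap1r1*, -0.17 and -0.16 for *Prkcb*, -0.15 and -0.15 for *Itpr1* and -0.026 and -0.024 for *Plcl2*. *Chrm1* and *Adcyap1r1* had -0.024 and -0.014 with library totals, and *Rapgef4* and *Adcyap1r1* 0.015 and -0.0050 with the widest interval. *Vipr1*, at about 0, had 0.0054 (RLE size factors), 0.0067 (no filter), 0.0053 (DESeq2 without prior), 0.0046 (DESeq2 with prior), 0.024 (gene length offset), 0.0072 (replicate block), 0.032 (replicate block and gene length offset) and 0.0067 (TMM before the filter). With 1 library left out, values ran from -0.054 to 0.033 for *Adcy3*, -0.064 to 0.070 for *Adcy5*, -0.057 to 0.0021 for *Akap11*, -0.062 to 0.067 for *Rapgef4*, -0.060 to 0.044 for *Chrm1*, -0.019 to 0.038 for *Adcyap1r1*, -0.075 to 0.083 for *Vipr1* and -0.0037 to 0.071 for the *Adcy1* ratio. The *Plcb4* ratio stayed between 0.46 and 0.56 (leaving libraries out of the ratios was chosen after seeing the data).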
